A study of Rattus norvegicus with 40 samples.

Results

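S100 proteins are small calcium-binding proteins, and 8 of their genes (S100a1, S100a4, S100a6, S100a8, S100a9, S100a10, S100a11 and S100a13) are described here among the 17337 genes counted in rat liver. They were taken by symbol from 16 counted genes with S100 symbols (S100pbp left out), with earlier results of these data known. S100a8 and S100a9, the pair that neutrophils carry in large amounts, are kept apart from the other 6. The rats were Fischer 344 males. The treated animals, aged 7 weeks at the start, received the liver carcinogen diethylnitrosamine (DEN) by weekly injection into the peritoneum at 50 mg/kg. Livers were taken after 8 weeks of injections, after 14 weeks of injections, or at 20 weeks, when a DEN-free interval of 6 weeks had followed 14 weeks of injections. Each time had its own set of untreated rats of the same age as the treated ones, whose livers are called no DEN liver. At 8 weeks only liver outside tumors (NT, for non-tumoral) was taken from DEN rats, and at 14 and 20 weeks NT liver and 2 tumor nodules were taken from each of them. This gave 8 groups of 4 rats. Counts of both nodules from an animal were summed, for 1 value per rat and tissue, and p-values measure the spread between rats. All samples were pieces of whole tissue, in which more cells of one type and more RNA per cell cannot be told apart.

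S100 proteins bind calcium through paired EF-hand loops, open a hydrophobic face and then hold on to a partner protein. S100A10 is unusual in that its calcium loops no longer bind the ion; it sits at the membrane in a complex with annexin A2 and holds plasminogen and its activators there. S100A8 and S100A9 pair up as calprotectin, which is stored in neutrophils and monocytes, withholds zinc and manganese from microbes and signals through TLR4 and RAGE once released. In the liver, several other members are better known from bile duct cells, stellate cells, macrophages and tumor cells than from resting hepatocytes.

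The members lie in pairs and clusters on rat chromosome 2, and a start-site window was held for 5 of the 8, S100a4, S100a6, S100a9, S100a11 and S100a13. The windows run from 250 bases before to 50 bases after the start (RefSeq, build GRCr8, which is not the rn6 build of the counts). They were searched on both strands for the TATA box (TATAAA), the GC box (GGGCGG), the AP-1 site (TGANTCA) and the C/EBP site (TTGCNNAA). Those of S100a6, S100a11 and S100a9 are shown because the log2 levels of S100a6 and S100a11 correlated over the 32 values of rat and tissue (Pearson's r = 0.942) more closely than either did with S100a9 (r = 0.590 and 0.490); capitals mark the matches, and all 3 read 5′ to 3′ along the gene. S100a6 is at chr2:178398287-178398586 (plus strand), S100a11 at chr2:181874882-181875181 (plus strand) and S100a9 at chr2:178490573-178490872 (minus strand).
S100a6: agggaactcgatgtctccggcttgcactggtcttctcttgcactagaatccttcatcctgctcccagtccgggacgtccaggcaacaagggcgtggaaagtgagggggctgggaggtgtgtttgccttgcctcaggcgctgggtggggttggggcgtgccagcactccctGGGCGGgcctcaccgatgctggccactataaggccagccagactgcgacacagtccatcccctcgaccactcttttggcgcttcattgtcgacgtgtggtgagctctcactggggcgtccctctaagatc
S100a11: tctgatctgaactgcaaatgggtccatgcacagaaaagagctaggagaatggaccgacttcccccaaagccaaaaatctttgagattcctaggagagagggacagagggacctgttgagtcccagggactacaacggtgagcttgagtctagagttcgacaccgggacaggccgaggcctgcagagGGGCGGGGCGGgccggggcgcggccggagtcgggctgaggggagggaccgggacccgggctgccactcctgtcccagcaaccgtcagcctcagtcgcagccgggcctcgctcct
S100a9: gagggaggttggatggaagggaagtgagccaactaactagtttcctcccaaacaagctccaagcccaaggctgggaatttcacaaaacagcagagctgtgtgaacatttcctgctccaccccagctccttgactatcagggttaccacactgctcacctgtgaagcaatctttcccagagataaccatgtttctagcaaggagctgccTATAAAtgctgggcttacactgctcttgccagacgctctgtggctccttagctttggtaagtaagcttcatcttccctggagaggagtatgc
The window of S100a6 held 1 GC box, from base -80 to -75 before the start, and that of S100a11 held 2 that share a base, from -64 to -59 and from -59 to -54. S100a9 held a TATA box from -42 to -37, as S100a4 did from -31 to -26, and S100a13 held a GC box from -82 to -77. No AP-1 or C/EBP letters were found in these 5 windows. Of 33469 rat promoters of the same length, 14.2% held the TATA box, 33.1% the GC box, 7.33% the AP-1 site and 10.6% the C/EBP site, so the matches are common ones. S100a11 lay next to S100a10, S100a1 next to S100a13 and S100a8 next to S100a9, with no coding gene between them. The same RefSeq table names 7 further copies or pseudogenes of S100a11 and 1 of S100a10. Read pairs that aligned to several places (7.96% to 16.3% of pairs per library) had been left out of the counts, so the levels of these 2 genes may be too low.

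The 40 libraries, from 24 rats, held 20528515 to 160622633 counted read pairs with a median of 30477421; the deepest was the NT liver of rat H26 at 20 weeks and the next 39355849. Levels are given as CPM, counts relative to library size, scaled by edgeR's TMM factors. They are not divided by gene length, so they compare samples and not genes. Counts behind a value ranged from 65 to 3769 per library for S100a10 and from 4 to 208 for S100a8, while S100a1 had under 10 counts in 33 of 40 libraries. Hepatocyte markers summed to between 154324 and 321126 CPM in every value of rat and tissue. Rats carry the letter F or H in their numbers, whose meaning the labels do not give; the untreated rats were all H, and each DEN group held 1 F rat (2 at 8 weeks).

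Most of the members that could be tested were called higher after DEN, in NT liver and in nodules. They had been chosen with earlier results known, so these counts describe the members and do not test the family. A gene was called when its log2 fold change was at least 0.5 in size and its adjusted p at most 0.05 in the quasi-likelihood F test of edgeR with Benjamini-Hochberg adjustment over all genes tested. In NT liver at 8 weeks 7 of 7 tested members were called higher, where 16.5% of all genes were. At 14 weeks 6 of 7 were called higher (22.8% of all genes), and 5 of 7 at 20 weeks (14.3% of all genes). Nodules against no DEN liver had 5 of 7 called higher at 14 weeks (23.9% of all genes) and 4 of 7 at 20 weeks (23.6% of all genes). No member was called lower in these 5 comparisons, in which the median log2 fold change of the members lay between 1.21 and 2.32 and that of all genes between -0.01 and 0.02. S100a1 was below the count filter in these comparisons, so it is the member left out of each 7.

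**Figure D1:**
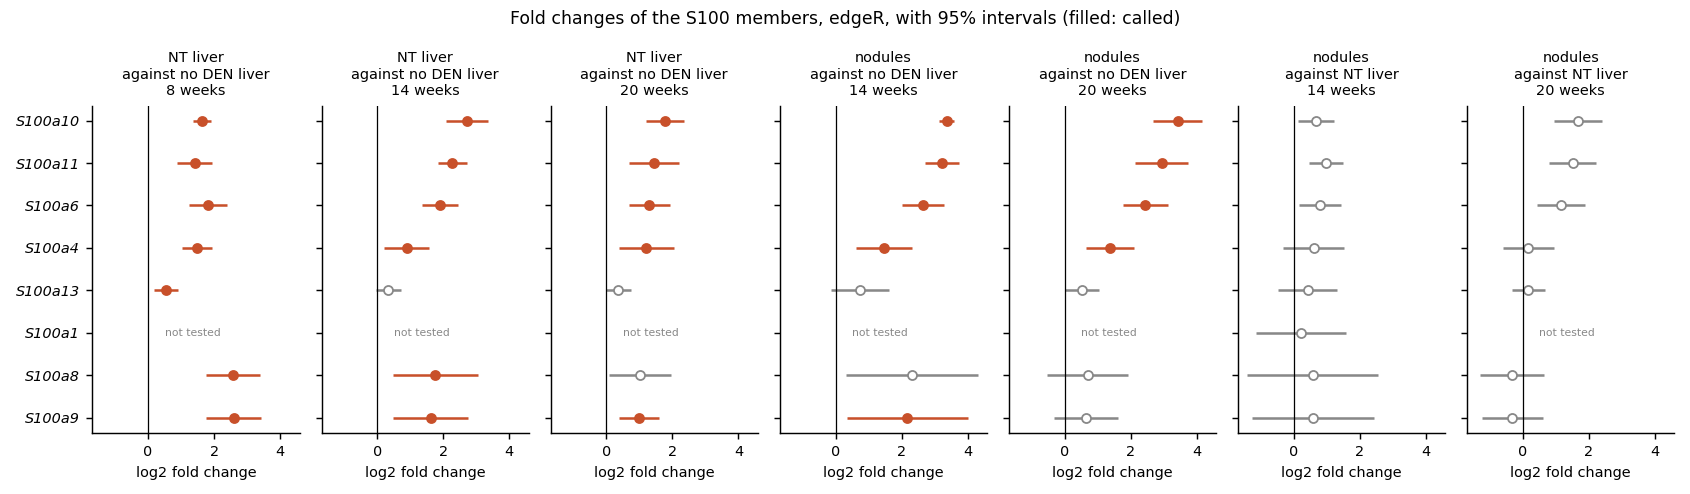
Log2 fold changes (x axis) of the 8 S100 genes (y axis) in 7 comparisons, 4 rats a group, with 95% intervals. Filled points were called, and nodules against NT liver are drawn from the fit without the pairing by rat. S100a10, S100a11 and S100a6 sit at 2.45 to 3.43 in nodules against no DEN liver, while S100a13 stays under 0.74 in all 7.

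S100a10, the annexin A2 partner, had the largest fold of the members in nodules against no DEN liver. In no DEN liver its level was 4.69, 4.63, 4.10 and 5.49 CPM at 8 weeks, 3.99, 4.04, 4.69 and 4.30 CPM at 14 weeks, and 5.33, 4.47, 4.14 and 2.74 CPM at 20 weeks. NT liver of DEN rats gave 15.1 (F09), 16.1 (F10), 12.5 (H17) and 15.6 (H18) CPM at 8 weeks, 16.03 (F06), 33.7 (H21), 38.5 (H22) and 22.5 (H23) CPM at 14 weeks, and 11.9 (F03), 9.32 (H25), 15.7 (H26) and 19.2 (H28) CPM at 20 weeks. Each NT value was above each no DEN value of its time, as for 18.6%, 26.8% and 16.4% of all genes at 8, 14 and 20 weeks. The NT livers of 14 weeks were the most spread. The log2 fold change was 1.64 ± 0.12 (SE) at 8 weeks, 2.73 ± 0.28 at 14 weeks and 1.78 ± 0.26 at 20 weeks, with adjusted p of 1.2e-05, 9.63e-05 and 0.00151 (edgeR). The rise was larger at 14 than at 8 weeks by 1.09 ± 0.30 on the log2 scale (adjusted p = 0.0353 in edgeR, test of the difference itself), a call that 4.16% of all genes shared; it ranged from 0.86 to 1.35 over the alternatives, and it was lost when any 1 of the rats F09, F10, H05, H06, H08, H09, H10, H11, H12, H21 or H22 was left out. From 14 to 20 weeks the rise changed by -0.94 ± 0.40, which did not pass (adjusted p = 0.249, edgeR; 0.373% of all genes were called lower and 0.365% higher).

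In the nodules S100a10 reached 42.4 (F06), 41.9 (H21), 51.2 (H22) and 43.3 (H23) CPM at 14 weeks and 43.5 (F03), 22.2 (H25), 46.0 (H26) and 69.7 (H28) CPM at 20 weeks. The nodules of 14 weeks were close to each other, whereas those of 20 weeks ran from 22.2 CPM, not far above the highest NT liver of that time, to the highest value of the series. Against no DEN liver the fold was 10.3 at 14 weeks and 10.8 at 20 weeks, log2 3.37 ± 0.10 and 3.43 ± 0.33 (adjusted p = 8.34e-07 and 6.59e-05, edgeR). Between these times the nodule effect differed by 0.05 (95% interval -0.72 to 0.81).

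S100a11, a partner of annexin A1 known from the cornified skin envelope and from growth control by TGF-beta, was also lowest without DEN and highest in nodules, at lower counts. No DEN liver held 0.699, 0.842, 0.695 and 0.830 CPM at 8 weeks, 0.707, 0.680, 0.603 and 0.695 CPM at 14 weeks and 0.472, 0.323, 0.761 and 0.844 CPM at 20 weeks. NT liver of DEN rats held 2.22, 2.74, 1.38 and 1.82 CPM at 8 weeks, 2.695, 3.55, 3.92 and 2.57 CPM at 14 weeks and 1.66, 1.17, 1.32 and 2.48 CPM at 20 weeks. The nodules held 8.52 (F06), 5.58 (H21), 6.78 (H22) and 4.61 (H23) CPM at 14 weeks and 6.14 (F03), 2.35 (H25), 5.07 (H26) and 5.42 (H28) CPM at 20 weeks. No DEN values did not overlap with those of NT liver or nodules at any time. In NT liver 18.6%, 26.8% and 16.4% of all genes lay wholly above no DEN liver at 8, 14 and 20 weeks. In nodules 26.8% did at 14 weeks and 26.2% at 20 weeks. S100a11 rose 2.65-fold, 4.82-fold and 2.72-fold in NT liver at 8, 14 and 20 weeks, log2 1.41 ± 0.24, 2.27 ± 0.20 and 1.45 ± 0.35 (adjusted p = 0.00152, 1.27e-05 and 0.0120, edgeR). In nodules it rose 9.31-fold at 14 weeks and 7.64-fold at 20 weeks, log2 3.22 ± 0.23 and 2.93 ± 0.37 (adjusted p = 1.5e-05 and 0.000214, edgeR).

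S100a6, known as calcyclin, marks proliferating cells and mesenchymal cells. Its level was 1.04 to 1.92 CPM in the 12 no DEN livers. In NT liver it was 4.71, 6.86, 3.17 and 6.49 CPM at 8 weeks, 4.95, 5.52, 8.19 and 4.01 CPM at 14 weeks, and 3.90, 3.00, 2.25 and 5.12 CPM at 20 weeks. The nodules gave 14.9 (F06), 8.98 (H21), 8.27 (H22) and 7.38 (H23) CPM at 14 weeks and 10.8 (F03), 4.06 (H25), 9.22 (H26) and 8.11 (H28) CPM at 20 weeks. Each DEN value was above all no DEN values, and rats F06 and F03 had the highest nodule values of their times. In the comparisons with no DEN liver of the same time, 16.4% to 26.8% of all genes lay wholly above. S100a6 rose in NT liver by 1.82 ± 0.26, 1.90 ± 0.24 and 1.3 ± 0.28 on the log2 scale at 8, 14 and 20 weeks (adjusted p = 0.000629, 0.000124 and 0.00766, edgeR). Its log2 fold change in nodules was 2.65 ± 0.28 at 14 weeks and 2.45 ± 0.30 at 20 weeks (adjusted p = 8.85e-05 and 0.000208, edgeR). The rise in NT liver at 14 weeks differed from that at 8 weeks by 0.08 (95% interval -0.75 to 0.90), and was not called. For S100a11 the same difference was 0.86 ± 0.32 (adjusted p = 0.0966, edgeR), and 1.28 with H rats alone, when it was called (adjusted p = 0.0190).

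S100a4, known from fibroblasts, macrophages and invasive tumor cells, had smaller folds than S100a6, S100a10 and S100a11 in nodules. No DEN livers held 0.464 to 1.24 CPM, and NT livers held 2.74 (F09), 3.15 (F10), 2.31 (H17) and 2.06 (H18) CPM at 8 weeks, 2.31 (F06), 2.15 (H21), 1.39 (H22) and 0.964 (H23) CPM at 14 weeks, and 3.01 (F03), 1.5 (H25), 1.09 (H26) and 2.34 (H28) CPM at 20 weeks. The lowest NT value fell within the range of no DEN liver at 14 and at 20 weeks but not at 8 weeks. S100a4 rose by 1.49 ± 0.21 on the log2 scale at 8 weeks, 0.89 ± 0.31 at 14 weeks and 1.21 ± 0.38 at 20 weeks (adjusted p = 0.000456, 0.0292 and 0.0362, edgeR). The call at 14 weeks was lost without F06, H09, H10, H12 or H21 and in 1 fit with all 8 groups (adjusted p = 0.0538), and the call at 20 weeks without F03, H14, H15, H16 or H28. Nodules held 1.69 to 4.64 CPM at 14 weeks and 1.54 to 3.31 CPM at 20 weeks, above every no DEN value, with log2 fold changes of 1.47 ± 0.38 and 1.37 ± 0.33 (adjusted p = 0.0107 and 0.00588, edgeR). Of all genes 26.8% and 26.2% had nodule values wholly above no DEN liver of their time.

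S100a13, which helps to release FGF1 and interleukin 1 alpha from cells without a signal peptide, moved little. Its no DEN level was 1.98 to 3.40 CPM, and NT liver held 3.33 to 5.26 CPM at 8 weeks, 2.45 to 3.87 CPM at 14 weeks and 2.73 to 3.74 CPM at 20 weeks. S100a13 was called only in NT liver at 8 weeks (log2 0.54 ± 0.17, adjusted p = 0.0285 in edgeR), and that call was lost without F09, F10, H05, H06, H07 or H18 and in 1 fit with all 8 groups (adjusted p = 0.134). At 14 and 20 weeks the log2 fold change in NT liver was 0.34 (95% interval -0.04 to 0.71) and 0.37 (95% interval -0.02 to 0.75). In nodules of 14 weeks rat F06 held 8.38 CPM and the 3 H rats 2.39 to 3.42 CPM; the log2 fold change was 0.73 (95% interval -0.14 to 1.61), 0.21 without F06, and 0.75 in 1 fit with all 8 groups, when it was called (adjusted p = 0.0194). S100a1, a partner of the calcium channels of heart muscle, was near the limit of detection at 0 to 0.550 CPM in the 32 values. It passed the count filter in nodules against NT liver at 14 weeks, where its log2 difference was 0.21 (95% interval -1.14 to 1.57), and in the test of the nodule effect between times.

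**Figure D2:**
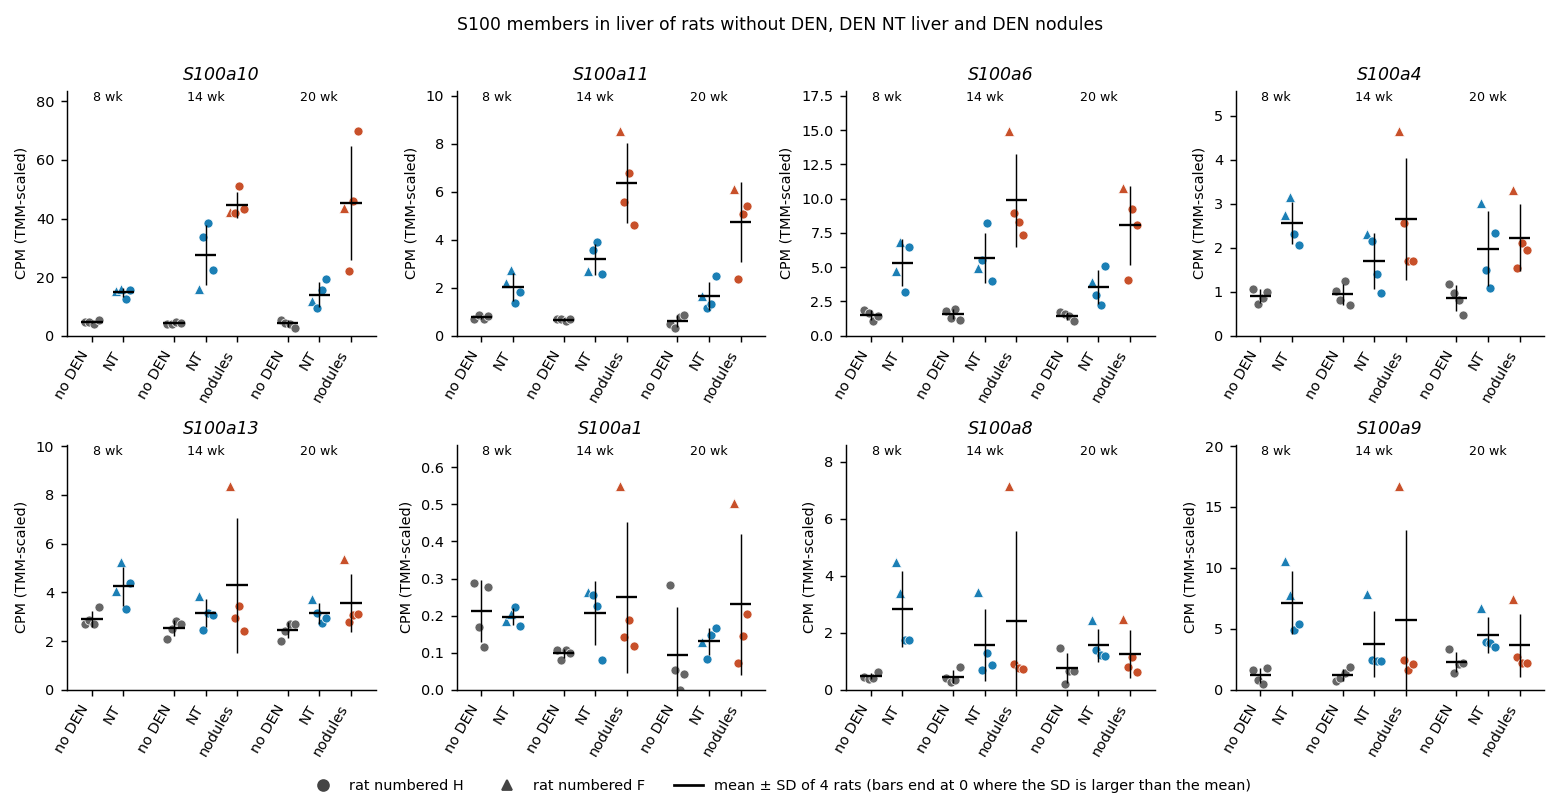
TMM-scaled CPM (y axis, from 0) of each S100 gene in the 8 groups (x axis), 1 point per rat, triangles for rats numbered F. Black lines are means with SD of 4 rats. Nodules sit highest for S100a10, S100a11 and S100a6, and for S100a8 and S100a9 the F rats stand above the H rats.

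Nodules were next compared with NT liver of the same livers. Without the pairing edgeR called no member higher at 14 weeks (0.0% of all genes) or at 20 weeks (0.0% of all genes); at each time 3 members had an unadjusted p under 0.05, as did 1348 and 2767 of all genes. DESeq2 called 1 member higher at 14 weeks (S100a11; 0.1% of all genes) and 3 at 20 weeks (5.28% of all genes), where 1 fit with all 8 groups called 3 (6.92% of all genes) and nodule 1 alone gave 1, S100a10 (1.03% of all genes). With the rat as replicate block S100a10, S100a11 and S100a6 were called higher in nodules at 20 weeks, where 9.21% of all genes were, and no member was at 14 weeks, where 0.0% of all genes were. S100a10 was higher in the nodules of 4 of 4 rats at 20 weeks, by 2.38-fold to 3.66-fold; the blocked log2 difference was 1.61 ± 0.10 (adjusted p = 8.77e-07), and the unblocked one 1.66 ± 0.32 (adjusted p = 0.0949). S100a11 was higher in 4 of 4 rats by 2.0-fold to 3.84-fold, with a blocked log2 difference of 1.5 ± 0.18 (adjusted p = 0.000106) against 1.5 ± 0.32 unblocked (adjusted p = 0.0949). S100a6 was higher in 4 of 4 rats by 1.35-fold to 4.10-fold, with 1.17 ± 0.29 blocked (adjusted p = 0.0325) and 1.16 ± 0.32 unblocked (adjusted p = 0.107). Without rat H25, whose nodules held the lowest levels of these 3 genes at 20 weeks, they were called without the block, at 1.73, 1.60 and 1.32. Leaving out the rat with the lowest nodule values favours such a call, and the share of all genes called in that fit is not given here.

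At 14 weeks the same 3 genes were higher in the nodules of 4 of 4 rats, S100a10 by 1.24-fold to 2.65-fold, S100a11 by 1.57-fold to 3.16-fold and S100a6 by 1.01-fold to 3.01-fold. S100a6 of rat H22 did not move, at 8.19 CPM in NT liver and 8.27 CPM in nodules. All nodule values were above all NT values for S100a10 and S100a11 at 14 weeks, as for 3.95% of all genes, and for S100a10 alone at 20 weeks, as for 6.07% of all genes. S100a4 was higher in nodules of 4 of 4 rats at 14 weeks and of 3 of 4 at 20 weeks, and S100a13 of 3 of 4 at each time, with no call.

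**Figure D3:**
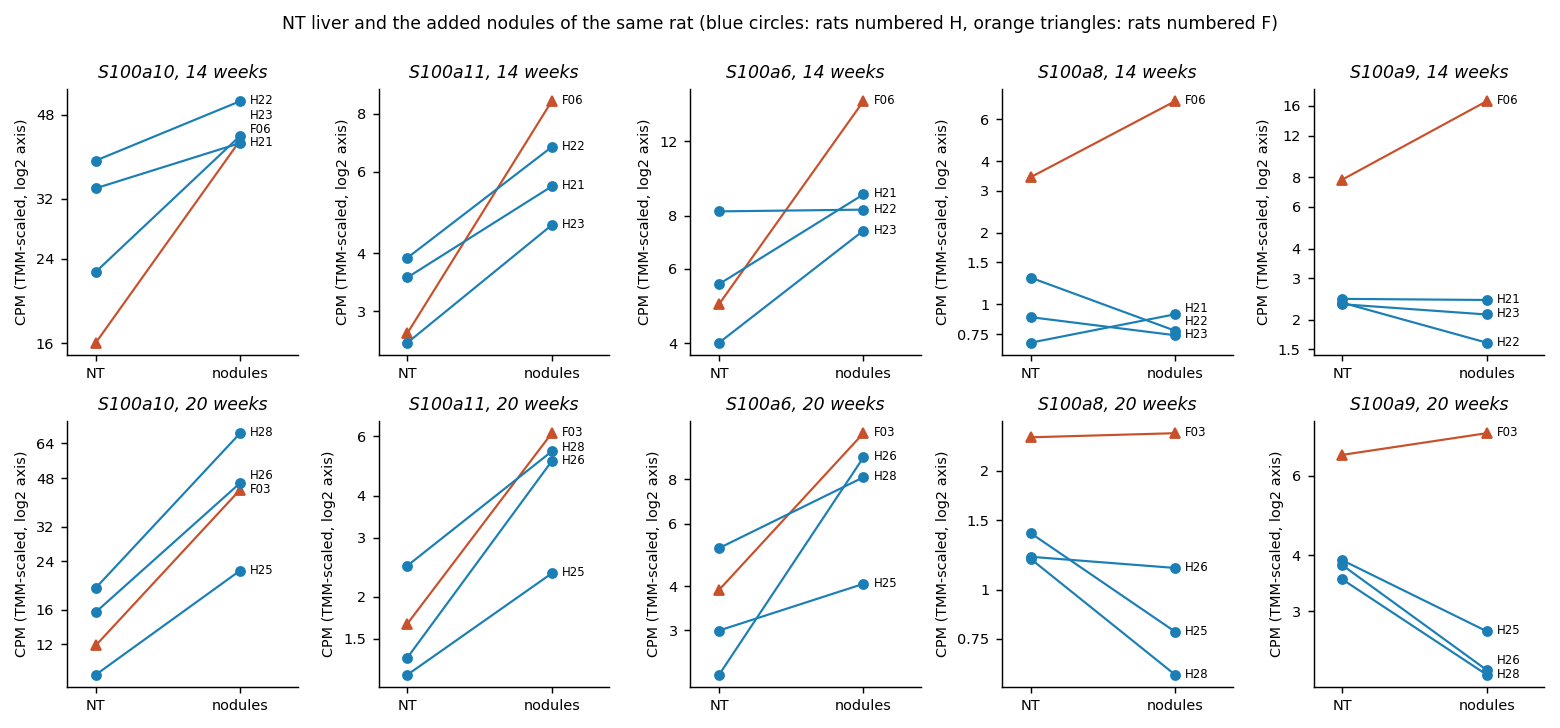
TMM-scaled CPM (log2 y axis) in NT liver and in the added nodules of the same rat, joined by lines, at 14 weeks (top) and 20 weeks (bottom). S100a10, S100a11 and S100a6 go up in every rat, by as little as 1.01-fold for S100a6, and S100a9 is lower in nodules of the 3 H rats of each time, by as little as 0.989-fold in H21.

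S100a8 and S100a9, the calprotectin chains, had their highest mean in NT liver at 8 weeks and not in nodules. That group held 2 F rats and each other DEN group 1. The highest values of all were those of the F06 nodules at 14 weeks, while among H rats NT liver at 8 weeks was highest. S100a8 held 0.452, 0.379, 0.425 and 0.632 CPM in no DEN liver at 8 weeks and 4.46 (F09), 3.39 (F10), 1.73 (H17) and 1.75 (H18) CPM in NT liver. S100a9 held 1.60, 0.800, 0.502 and 1.82 CPM in the same no DEN livers and 10.6 (F09), 7.74 (F10), 4.93 (H17) and 5.40 (H18) CPM in NT liver. The groups did not overlap, where 18.6% of all genes lay wholly above no DEN liver, and the F rats were the highest. S100a8 rose 5.94-fold and S100a9 6.03-fold at 8 weeks, log2 2.57 ± 0.37 and 2.59 ± 0.38 (adjusted p = 0.000629 and 0.000789, edgeR), and with H rats alone by 1.88 and 2.13 on the log2 scale, called in both cases.

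At 14 weeks S100a8 in NT liver was 3.43 (F06), 0.690 (H21), 1.29 (H22) and 0.883 (H23) CPM, against 0.424, 0.280, 0.355 and 0.795 CPM without DEN. S100a9 in NT liver was 7.82 (F06), 2.45 (H21), 2.36 (H22) and 2.33 (H23) CPM, against 0.707, 1.00, 1.35 and 1.89 CPM. Rat F06 stood far above the others, and for S100a8 rat H21 fell below the highest no DEN value. Both genes were called higher in NT liver at 14 weeks, by 1.76 ± 0.57 and 1.62 ± 0.50 on the log2 scale (adjusted p = 0.0265 and 0.0231, edgeR). Without F06 the values were 1.01 and 0.95, still called, and without H09, H10 or H11 both calls were lost.

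In nodules of 14 weeks S100a8 was 7.16 (F06), 0.908 (H21), 0.775 (H22) and 0.741 (H23) CPM, and S100a9 was 16.8 (F06), 2.43 (H21), 1.60 (H22) and 2.11 (H23) CPM. Rat F06 stood far above the H rats, which lay around the upper end of no DEN liver. The 2 nodule libraries of F06 had the highest shares of pairs outside annotated exons, 34.5% and 28.2% against at most 26.3% in any other library, and the first was the shallowest library, with 20528515 counted pairs; their part in the values was not tested. Against no DEN liver S100a8 differed by 2.32 ± 0.88 on the log2 scale (adjusted p = 0.0523, edgeR), just outside the call, and S100a9 by 2.18 ± 0.81 (adjusted p = 0.0486), just inside it. Without F06 these values fell to 0.78 (adjusted p = 0.0415, called) and 0.72 (adjusted p = 0.0373, called). The call of S100a9 was lost without H09, H10, H11 or H12 and with nodule 1 alone, and S100a8 was called without H21, H22 or H23, in 1 fit with all 8 groups (adjusted p = 0.00593), with nodule 2 alone and with each nodule as its own value. Against NT liver S100a8 and S100a9 both differed by 0.58, and by -0.23 for each once F06 was left out.

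At 20 weeks S100a8 in NT liver was 2.43 (F03), 1.39 (H25), 1.21 (H26) and 1.2 (H28) CPM against 1.46, 0.215, 0.666 and 0.675 CPM without DEN, and S100a9 was 6.69 (F03), 3.90 (H25), 3.8 (H26) and 3.53 (H28) CPM against 3.35, 1.4, 2.14 and 2.24 CPM. S100a9 rose by 0.97 ± 0.28 on the log2 scale (adjusted p = 0.0243, edgeR), a call lost without F03, H14, H15 or H16 and in 1 fit with all 8 groups (adjusted p = 0.253). S100a8 differed by 1.02 ± 0.43 (adjusted p = 0.1002), and by 1.51 without H13, when it was called. The nodules of 20 weeks gave 2.49 (F03), 0.782 (H25), 1.13 (H26) and 0.609 (H28) CPM for S100a8 and 7.47 (F03), 2.71 (H25), 2.22 (H26) and 2.17 (H28) CPM for S100a9, overlapping with no DEN liver. In these nodules the log2 difference from no DEN liver was 0.70 (95% interval -0.54 to 1.93) for S100a8 and 0.65 (95% interval -0.31 to 1.62) for S100a9, and without rat F03 it was 0.14 and 0.049. Both were lower in nodules than in NT liver of the same rat in 3 of 4 rats at 20 weeks, and with the rat as replicate block the log2 difference was -0.43 ± 0.21 for S100a8 (adjusted p = 0.135) and -0.47 ± 0.16 for S100a9 (adjusted p = 0.0390, edgeR), below the fold limit of a call.

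With all rats, the DEN effect on this pair was not called different between times. In NT liver the change from 8 to 14 weeks was -0.82 ± 0.76 for S100a8 and -0.98 ± 0.68 for S100a9, and without F06 it was -1.55 (adjusted p = 0.0802, edgeR) and -1.63 (adjusted p = 0.0472), when S100a9 was called. From 14 to 20 weeks the nodule effect changed by -1.65 (95% interval -4.05 to 0.76) for S100a8 and -1.55 (95% interval -3.65 to 0.54) for S100a9, and without rat F06 by -0.06 and -0.04. Of all genes 0.0775% were called lower and 0.00862% higher in that test, and no member had an unadjusted p under 0.05 in it.

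Rats numbered F had higher values than all H rats of their group for S100a8, S100a9 and S100a4 in 5 of 5 DEN groups, and for S100a13 in 4 of 5. For S100a1 and S100a11 this held in 3 of 5 and for S100a6 in 2 of 5. In a single group 25.6% to 41.7% of genes with a mean of at least 1 CPM had this order. The 5 groups are not independent, as F06 and F03 each gave NT liver and nodules. The same order in 5 of 5 groups was found for 446 of 10067 genes with a mean of at least 1 CPM (4.43%). For S100a10 it was found in 0 of 5 groups. With H rats alone S100a6, S100a10 and S100a11 were called in all 5 comparisons with no DEN liver, while S100a13 at 8 weeks (0.41), S100a4 at 14 weeks (0.69) and S100a4 and S100a9 at 20 weeks (0.94 and 0.73) were not. No untreated rat carried the letter F, so a comparison within F rats was not possible, and the part of the letter in these results was not tested.

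The summed level of 12 neutrophil markers was 1.35 to 3.11 CPM in no DEN liver and 4.10 to 7.26 CPM in NT liver at 8 weeks. At 14 and 20 weeks it was highest in the F rat of each DEN group, with 8.32 CPM in NT liver and 12.4 CPM in nodules of F06 against at most 3.76 and 4.14 CPM in the H rats of 14 weeks. Csf3r, the receptor of the growth factor G-CSF, had a mean of 0.453 CPM in no DEN liver and 2.17 CPM in NT liver at 8 weeks and ran from 0.754 to 4.82 CPM in nodules of 14 weeks. Mpo, Elane, Ltf, Camp and Cd177, which define granule-bearing neutrophils and their precursors, reached at most 0.413 CPM (Camp) in any value of rat and tissue, and Ltf was at 0 in 6 of 8 groups. Fcnb, Ngp and Mmp8, also granule genes, reached 2.77, 1.39 and 1.01 CPM at most, each in nodules of 14 weeks. In each comparison with no DEN liver 3 of the 12 genes passed the count filter; 2 of the 3 were called higher in NT liver at 8 weeks, against 16.5% of all genes, and 1 of the 3 in NT liver at 14 and 20 weeks (22.8% and 14.3% of all genes) and in nodules at both times (23.9% and 23.6%). Mmp9, on the same list, had a mean of 0.703 CPM in no DEN liver and 0.601 CPM in NT liver at 8 weeks. Blood cell markers of the F06 nodules summed to 755 CPM against at most 167 CPM in the H rats of that group and 169 to 336 CPM in no DEN liver. The part of these cells in the values of S100a8 and S100a9 was not tested.

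Markers of other cells were counted first in nodules against no DEN liver, where 23.9% (14 weeks) and 23.6% (20 weeks) of all genes were called higher and 15.2% lower at each time. Of 7 cholangiocyte markers 7 were called higher in nodules at 14 and at 20 weeks, and their sum was 17.6 to 25.3 CPM in no DEN liver, 76.2 to 146 CPM in nodules of 14 weeks and 93.04 to 223 CPM in those of 20 weeks. Stellate cell and fibroblast markers (10 genes, of which Col1a2 was at 0 in all groups) summed to 207 to 299 CPM without DEN and to 310 to 530 CPM in nodules, and 5 of 9 tested were called higher in nodules at each time. Endothelial markers had 6 of 7 called higher, at 67.2 to 159 CPM without DEN and 176 to 236 CPM in nodules, and lymphocyte and pan-leukocyte markers 4 at 14 weeks and 5 at 20 weeks, both of 9 tested. Macrophage and monocyte markers had 4 called higher and 2 lower at each time, among 11 tested at 14 weeks and 10 at 20 weeks, at 807 to 1225 CPM without DEN and 625 to 929 CPM in nodules. Of 8 hepatocyte markers 5 were called lower and 1 higher at each time, and their sum was 272572 to 321126 CPM without DEN and 154324 to 220943 CPM in nodules. In NT liver the cholangiocyte markers had 5 of 7 called higher at 8 weeks and 7 of 7 at 14 and at 20 weeks, with sums of 32.7 to 42.1, 45.3 to 115 and 41.1 to 70.5 CPM. Lymphocyte and pan-leukocyte markers had 8 of 9 called higher at 8 weeks, then 3 of 7 (14 weeks) and 4 of 8 (20 weeks), and summed to 54.8 to 62.8 CPM in NT liver at 8 weeks against 28.8 to 48.3 CPM without DEN. Stellate cell and fibroblast markers had 7, 6 and 4 of 9 called higher at 8, 14 and 20 weeks (1 lower at 14 weeks), and endothelial markers 6 of 7 at each time. Macrophage and monocyte markers had 3, 3 and 4 of 10 called higher and 1, 2 and 0 lower, and hepatocyte markers 0, 1 and 1 of 8 higher and 2, 3 and 0 lower. The shares of all genes called higher in NT liver were 16.5%, 22.8% and 14.3%, and those called lower 5.21%, 9.85% and 3.82%. In the difference of 14 against 8 weeks, where S100a10 was called, 4 of 7 cholangiocyte markers were called higher (4.16% of all genes) with a median log2 difference of 2.15, and 3 of 8 hepatocyte markers lower (4.8% of all genes). The part of these cell types in the levels of the S100 genes was not tested.

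Of 27 partners and receptors of S100 proteins, all of them in the files, NT liver had 13 called higher among 26 tested at 8 weeks, 15 among 26 at 14 weeks and 14 among 25 at 20 weeks, with none lower; the shares of all genes called higher were 16.5%, 22.8% and 14.3%. In nodules 14 of 26 were called higher and 1 lower at 14 weeks, and 16 of 26 higher and 1 lower at 20 weeks, against 23.9% and 23.6% of all genes called higher. The one that fell was Plg, which encodes plasminogen (log2 -0.85 and -0.78, where 15.2% of all genes were called lower at each time). Anxa2, the annexin that binds S100a10, rose by 1.57 ± 0.15, 3.25 ± 0.38 and 2.31 ± 0.31 on the log2 scale in NT liver at 8, 14 and 20 weeks, and by 3.89 ± 0.23 and 3.92 ± 0.32 in nodules (all called). Its DEN effect in NT liver was also larger at 14 than at 8 weeks, by 1.68 ± 0.41 (adjusted p = 0.0225, edgeR). Anxa1, a partner of S100a11, rose by 2.25 and 3.02 in nodules, and Anxa5, a further annexin, by 2.20 and 2.24. Plaur, the receptor of the plasminogen activator urokinase, rose by 2.98 and 2.07. Fgf1, the cargo of S100a13, rose by 1.75 in nodules at 14 weeks and 1.60 at 20 weeks. Tlr4, a receptor of calprotectin, was called in NT liver (0.91) and nodules (0.74) at 20 weeks.

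Other genes of the S100 family in the files were mostly low. S100vp and S100z were at 0 in every sample, S100a7a had reads in 1 sample, and S100a3 and S100a5 reached at most 0.138 CPM in the values of rat and tissue. S100b, the member best known from glial cells, is not among the 8 but had the largest folds of the S100 genes tested in nodules against no DEN liver. It was 0 to 0.356 CPM in no DEN liver, 0.438 to 0.554 CPM in NT liver at 8 weeks, 0.762 to 2.58 CPM at 14 weeks and 0.381 to 2.09 CPM at 20 weeks. In nodules it was 2.58 to 5.02 CPM at 14 weeks and 2.22 to 7.38 CPM at 20 weeks, with log2 fold changes of 4.25 ± 0.31 and 5.15 ± 0.56 (adjusted p = 1.67e-05 and 9.87e-05, edgeR). Its DEN effect in NT liver was larger at 14 than at 8 weeks by 2.42 ± 0.59 (adjusted p = 0.0205, edgeR). S100g, known as calbindin D9k, rose by 2.91 ± 0.48 in NT liver at 8 weeks and 2.20 ± 0.42 at 14 weeks (adjusted p = 0.00117 and 0.00122, edgeR), and by 2.41 ± 0.49 in nodules of 14 weeks (adjusted p = 0.00325). At 20 weeks S100g was below the count filter in both comparisons with no DEN liver, at 0.0640 to 0.163 CPM in NT liver, within the 0.0472 to 0.211 CPM of no DEN liver, and 0.207 to 0.596 CPM in nodules. S100a16, at 14.4 to 26.2 CPM in the 32 values of rat and tissue, had log2 fold changes of 0.31 to 0.49 in all 5 comparisons with no DEN liver, under the fold limit. S100pbp, which encodes a protein that binds S100P and is no S100 protein itself, fell by 0.55 and 0.69 in nodules.

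The genes whose levels were most like those of a member were listed by Pearson's r of log2 CPM over the 32 values of rat and tissue, which share groups, so that any 2 genes that rise with DEN correlate. For S100a10 they were Atpif1, Anxa2 and Rcn1 (r = 0.989, 0.988 and 0.985), and for S100a11 Tmsb10, Tspo and Gpx3 (0.963, 0.961 and 0.960). S100a6 was nearest to Tmsb10, Timp1 and Myl12a (0.970, 0.963 and 0.961), and S100a4 to Lyz2, Cyba and Dnase2 (0.928, 0.923 and 0.919). S100a8 was nearest to S100a9 (0.935), Csf3r (0.901) and Chi3l1 (0.895), and S100a9, after S100a8, to Chi3l1 (0.887) and Slfn3 (0.876). Among members r was 0.943 between S100a6 and S100a10, 0.953 between S100a10 and S100a11 and 0.463 between S100a8 and S100a10. S100a13 was nearest to Cd300lf (0.922) and S100a1, at its low counts, to Tspan15 (0.756).

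**Figure D4:**
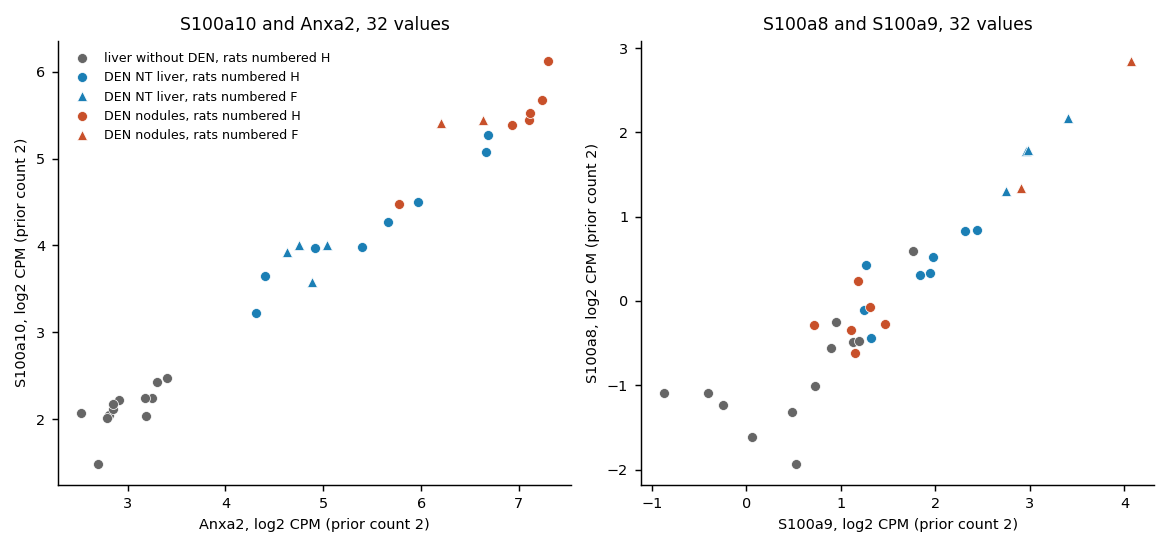
Log2 CPM of S100a10 against Anxa2 (left, r = 0.988) and of S100a8 against S100a9 (right, r = 0.935), 1 point for each of 32 values of rat and tissue, triangles for rats numbered F. Nodules fill the upper end on the left, and F rats of NT liver and nodules the upper end on the right.

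The 2 nodules of a rat differed in the levels of these genes. For S100a10 the higher nodule exceeded the lower one by 1.37-fold to 1.71-fold at 14 weeks and by 1.33-fold to 2.20-fold at 20 weeks. Rat H28 had 53.4 and 86.5 CPM of S100a10 and 2.57 and 7.89 CPM of S100a11 in its 2 nodules, the widest gap for S100a11 at 3.08-fold. In rat F03 both S100a8 (4.28 and 1.46 CPM) and S100a9 (12.6 and 4.50 CPM) were higher in 1 nodule, by 2.94-fold and 2.81-fold. The 2 nodules of F06 were alike for this pair, with 8.09 and 6.83 CPM of S100a8 and 20.0 and 15.1 CPM of S100a9, and each nodule was above every H nodule. A single nodule has no replicate of its own, so these gaps have no test.

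In the order of the group means the 3 no DEN groups were lowest for S100a4, S100a6, S100a8, S100a9, S100a10, S100a11 and S100a13, and their values overlapped with each other. S100a10 went up without overlap from no DEN liver (4.73 ± 0.575 CPM at 8 weeks, SD, n = 4) to NT liver at 20 weeks (14.0 ± 4.34 CPM) and from NT liver at 14 weeks (27.7 ± 10.2 CPM) to nodules of 14 weeks (44.7 ± 4.38 CPM). Nodules of 20 weeks (45.4 ± 19.4 CPM) overlapped with those of 14 weeks, and NT liver at 8 weeks (14.8 ± 1.58 CPM) with that at 20 weeks. S100a11 and S100a6 had 1 such step each, from no DEN liver to the DEN groups, above which neighbouring groups overlapped. For S100a8 and S100a9 every neighbour in the order overlapped with the next, from no DEN liver (0.463 ± 0.228 and 1.18 ± 0.630 CPM in the lowest group) to NT liver at 8 weeks (2.83 ± 1.33 and 7.15 ± 2.58 CPM).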

How the data were processed

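Poly(A) RNA libraries (TruSeq Stranded mRNA) of rat liver were aligned by the authors with STAR 2.7.1a to UCSC rn6, and read pairs on exons of the reverse strand were counted with HTSeq 0.11.2, pairs of several places left out; the deposited values are these raw counts per gene and library, with no molecular identifiers, so precision is that of counting at best. Lines that name no gene held 21.5% to 34.5% (no feature) and 0.816% to 1.56% (ambiguous) of pairs and were left out. The same libraries held 20528515 to 160622633 counted pairs. Both nodules of a rat were summed, as the rat is the replicate. Each comparison was fitted on its own groups with edgeR 4.0.16 in R 4.3.3 (filterByExpr, TMM, robust quasi-likelihood F test, Benjamini-Hochberg over all genes tested); a call needs a log2 fold change of 0.5 and an adjusted p of 0.05, and tests of differences between times the latter only. DESeq2 1.42.0, rat as replicate block, left-out rats and other choices were alternatives. Same-rat tissues share an animal by their labels and correlated (r = 0.384 to 0.632 over 10493 genes; NT liver of H21 correlated best with the nodules of H22, and that of the other 7 rats with their own), so nodules and NT liver are paired by animal. Scripts were tested on simulated data. Members, marker lists and partner lists were chosen with earlier results of these data known. All 8 members and any called gene of the partner and other S100 lists could be named; the genes most like a member were the 3 of highest Pearson's r among genes with a mean of at least 1 CPM.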

Additional observations from a re-analysis of the deposited data

Results flagged for a closer look

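Of 64 groups of 4 values (8 genes in 8 groups), 9 held a rat whose gap to its nearest neighbour exceeded the critical share of the range in Dixon's test for 4 values. That limit is passed by about 1 in 20 groups when values are normal and groups independent. These groups share rats and correlated genes (r = 0.935 for S100a8 and S100a9), so the 9 cannot be set against that rate. The flagged rat was numbered F in 8 of the 9. Rat F06 stood apart with 7.82 CPM of S100a9 in NT liver at 14 weeks, and in nodules of 14 weeks with 16.8 CPM of S100a9, 7.16 CPM of S100a8 and 0.550 CPM of S100a1. Rat F03 stood apart with 2.43 CPM of S100a8 and 6.69 CPM of S100a9 in NT liver at 20 weeks, and with 7.47 CPM of S100a9 and 5.35 CPM of S100a13 in nodules of 20 weeks. The remaining one was rat H22, with 51.2 CPM of S100a10 in nodules of 14 weeks against 41.9 to 43.3 CPM in the other rats.

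The DEN effect on S100a10 in NT liver differed between 14 and 8 weeks by 1.09 on the log2 scale, by a test of that difference.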

How the results depend on the processing

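Over 1134 values of members under alternative settings, 1017 kept direction and side of the threshold, 56 lost a call, 26 gained one and 35 changed sign; those that changed sign were not called. With a fold of 2 and adjusted p of 0.01, 3 members were called in NT liver at 14 weeks and 2 at 20 weeks; with H rats alone 3 were at 20 weeks and 2 in the difference of 14 against 8 weeks. Leaving out 1 rat gave 3 to 6 members in NT liver at 14 weeks (3 without H09 or H10) and 3 to 6 at 20 weeks (3 without F03, H14, H15 or H16), 0 to 3 in nodules against NT liver at 20 weeks and 0 to 2 in the difference of 14 against 8 weeks. Shares of all genes called under these settings are not given here. The counts show how the member calls moved, and not whether they moved apart from all genes. In nodules against NT liver DESeq2 called 1 member at 14 weeks and 3 at 20 weeks, where 1 fit of all groups called 3, nodule 1 alone 1 and the rat as replicate block 3; the block changed no other call. DESeq2 gave no adjusted p for S100a8 and S100a9 in nodules of 14 weeks. The cause of these changes was not tested. In nodules against NT liver the sign turned with H rats alone for S100a1 (-0.33), S100a8 (-0.23) and S100a9 (-0.23) at 14 weeks and S100a13 (-0.00012) at 20 weeks, with nodule 1 alone for S100a8 (0.057) and S100a9 (0.066) and with nodule 2 alone for S100a13 (-0.022) at 20 weeks. Leaving out 1 rat gave -0.33 to 0.54 for S100a1, -0.23 to 0.79 for S100a8 and -0.23 to 0.73 for S100a9 at 14 weeks, and -0.022 to 0.35 for S100a4 and -0.00012 to 0.27 for S100a13 at 20 weeks. For the DEN effect in NT liver it gave -0.18 to 0.22 for S100a6 (14 against 8 weeks), and -0.93 to 0.017 for S100a9 and -0.074 to 0.15 for S100a13 (20 against 14 weeks). For the nodule effect, 20 against 14 weeks, it gave -0.44 to 1.48 for S100a1, -0.36 to 0.32 for S100a4, -0.38 to 0.068 for S100a6, -0.23 to 0.27 for S100a10 and -0.47 to 0.34 for S100a13, and H rats alone gave 0.052 for S100a4 and 0.075 for S100a13. Depth limits S100a1 most.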
